A study of Rattus norvegicus with 18 samples.

Results

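The collagen genes are the rows of the deposited expression tables whose symbol consists of Col, a number, the letter a, and a second number. This rule gave 42 genes of the 22081 in the tables. They were grouped by the assembly that their protein chains form: 10 fibrillar collagens, 6 basement membrane (type IV) collagens, 5 beaded filament (type VI) collagens, 3 hexagonal network collagens, 9 fibril-associated collagens with interrupted triple helices (FACIT), 2 multiplexins, 4 transmembrane collagens, the anchoring fibril collagen *Col7a1*, and 2 others. The rule uses symbols only and no measured value. *Col1a2*, *Col6a3*, and *Col21a1*, which belong to the fibrillar, beaded filament, and FACIT classes, are not analysed here.

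Collagens are extracellular proteins in which chains wind into a triple helix, and each gene encodes 1 chain. Fibrillar collagens such as types I, III, and V assemble into the fibrils that carry tension in the lung interstitium, and FACIT collagens bind to the surface of these fibrils. Type IV collagens form the sheet under epithelium and endothelium, where the common network is built from the chains of *Col4a1* and *Col4a2*, and the networks of the glomerulus and the alveolus also contain those of *Col4a3*, *Col4a4*, and *Col4a5*. Type VI collagens form beaded microfilaments between basement membranes and fibrils, and deposition of fibrillar collagen is a hallmark of lung fibrosis.

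The data are RNA-seq of lung tissue from 18 male F344 rats, from 6 groups of 3: control and MWCNT-treated rats of Years 0.5, 1, and 2. MWCNT-treated rats received the multiwalled carbon nanotube MWNT-7 into the trachea at 0.5 mg/kg every 4 weeks from 9 weeks of age, and control rats received the vehicle, saline with a detergent. Lungs were taken at weeks 26, 52, and 104, when the rats were 35, 61, and 113 weeks old, so that the years differ in age as well as in the number of instillations. The tissue was a piece of the accessory lobe without a tumor visible at necropsy. Per the paper, sections of the remaining lobe were checked under the microscope for the absence of tumors. The paper adds that the frozen pieces may still have held focal lesions, such as hyperplasias and early adenomatous lesions. Each rat was a separate animal, and total counts ranged from 13297643 to 21130757 per rat. Because whole tissue was sequenced, fewer cells of a type and less RNA per cell cannot be told apart for any of these genes.

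Levels of different genes are compared in TPM, a unit of transcript abundance that is corrected for gene length and depth. Values of the same gene in different rats are given as normalized CPM, which are counts scaled to the size of the library, adjusted over the 18 libraries by the trimmed mean of M-values (TMM) method. MWCNT-treated and control rats of each year were compared by quasi-likelihood in edgeR. A gene was a differentially expressed gene (DEG) if its false discovery rate (FDR) was below 0.05 and its log2 fold change exceeded 1 in size. All FDR values below come from edgeR with Benjamini-Hochberg adjustment over all genes tested. Where a call is said to be lost without several replicates, each of these rats was left out by itself, and each omission alone lost the call. Scaling by library size alone in place of TMM would move the median log2 fold change of all genes by -0.10, -0.13, and -0.17 at Years 0.5, 1, and 2.

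MWCNT Year 1 replicate 2 stood apart from the other rats of its group. The median deviation of 35 collagen genes from the group mean was -0.27 on the log2 scale in this library, and the longest 10% of all genes deviated by a median of -0.15. These long genes included 19 of those 35 collagen genes. In control Year 0.5 replicate 3 the same 35 collagen genes lay 0.17 above the group mean. The alveolar type 2 markers *Sftpc* and *Sftpb* were expressed in all rats. Heart muscle markers differed widely between rats. Their summed normalized CPM was 298, 185, and 683 in the control rats of Year 0.5 and 55.7, 220, and 684 at Year 2. In control Year 0.5 replicate 3 the smooth muscle and pericyte sum was 2111, beside 1772 and 1582 in its group. Its mesothelial sum was 459, beside 282 and 347, and its lung fibroblast sum was 3066, beside 3134 and 3552. The part of such differences in the collagen levels was not tested.

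*Col3a1*, the chain of type III collagen that accompanies type I in compliant tissue, was the most abundant collagen transcript, with a mean of 455 TPM over the 18 rats. It was followed by *Col4a1* with 232 TPM, *Col1a1* with 179 TPM, *Col6a2* with 158 TPM, *Col6a1* with 140.5 TPM, and *Col4a2* with 129 TPM. In the control rats of Year 0.5 these levels were 496 ± 133 TPM for *Col3a1*, 268 ± 20.3 TPM for *Col4a1*, and 196 ± 54 TPM for *Col1a1* (SD, n = 3). Neighbors in this order were not always separated beyond their spread, as with *Col6a2* at 214 ± 13.2 TPM and *Col1a1* in the same rats. The most abundant members of the other classes were *Col16a1* (FACIT) with 75.5 TPM, *Col13a1* (transmembrane) with 61.1 TPM, *Col18a1* (multiplexin) with 39.1 TPM, *Col8a2* (hexagonal network) with 6.58 TPM, *Col7a1* (anchoring fibril) with 4.31 TPM, and *Col28a1* (other) with 0.206 TPM.

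At the bottom of the range were 12 genes with a mean below 1 TPM. *Col10a1*, *Col19a1*, *Col23a1*, *Col24a1*, *Col25a1*, *Col26a1*, *Col28a1*, *Col2a1*, *Col9a1*, and *Col9a3* had too few counts to be tested at any year, and *Col11a1* could be tested at Year 2 only. These include the collagens of cartilage, *Col2a1*, *Col9a1*, *Col9a3*, and *Col10a1*. *Col2a1* had at most 1 count in any rat. No read was counted for *Col23a1* in any of the 18 rats, which allows up to 3 counts in a library, or 0.142 to 0.226 CPM, as far as counting error alone is concerned.

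The number of collagen genes that passed the test was greatest at Year 2. Of the 31 collagen genes tested at Year 0.5, 3 were DEGs, against 9.10% of all genes tested. Of these, 1 was higher and 2 were lower with MWCNT, against 6.07% and 3.03% of all genes. At Year 1, 2 of 31 were DEGs, against 10.2% of all genes, with 1 higher (6.13%) and 1 lower (4.09%). At Year 2, 11 of 32 were DEGs, against 16.4% of all genes, with 5 higher (8.17%) and 6 lower (8.22%). By the FDR alone, 16 collagen genes passed at Year 0.5 (38.8% of all genes), 16 at Year 1 (41.2%), and 25 at Year 2 (49.2%). The groups did not overlap in normalized CPM for 6 higher and 8 lower collagen genes at Year 0.5, 8 and 15 at Year 1, and 11 and 15 at Year 2, where this held for 51.6%, 54.9%, and 59.9% of all genes, with 27.1%, 28.5%, and 30.1% higher and 24.5%, 26.3%, and 29.8% lower.

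The collagen genes moved in both directions within most classes. The genes that passed the FDR were 7 higher and 9 lower at Year 0.5, 5 higher and 11 lower at Year 1, and 10 higher and 15 lower at Year 2. Over all genes, 20.2%, 21.6%, and 25.2% were higher and 18.6%, 19.6%, and 24% lower. This split depended on the scaling at the first 2 time points. With library size only it was 4 higher and 14 lower at Year 0.5 and 3 higher and 15 lower at Year 1, with upper quartile normalization 4 higher and 15 lower at Year 1, and with limma on log2(TPM + 1) 3 higher and 13 lower at Year 0.5 and 2 higher and 15 lower at Year 1. At Year 2 limma gave 2 higher and 5 lower DEGs. No collagen gene that passed the FDR changed sign under any of these settings. The median log2 fold change of the collagen genes tested was -0.13 at Year 0.5, -0.29 at Year 1, and -0.14 at Year 2, beside -0.02, 0.00, and -0.01 for all genes. The plot of fold changes by class shows every gene tested.

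**Figure D1:**
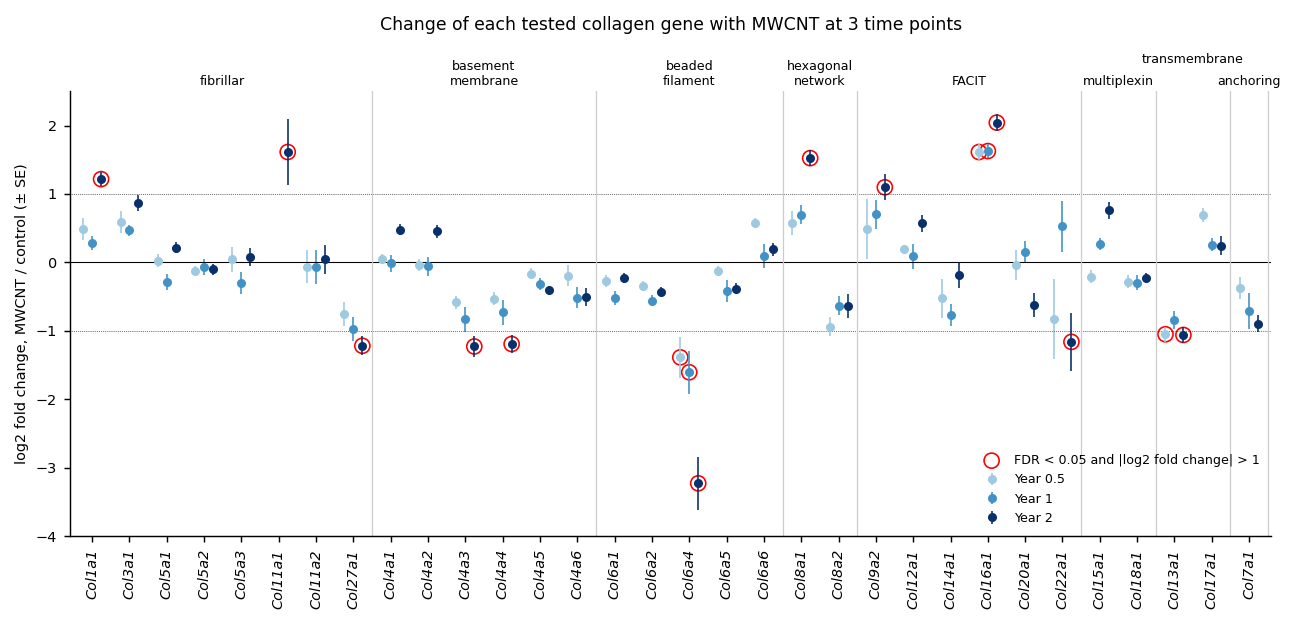
Log2 fold change of MWCNT-treated over control rats (y axis, log scale) for each tested collagen gene (x axis, grouped by class) at the 3 time points, from edgeR. Points are estimates, bars are standard errors, dotted lines mark log2 fold changes of -1 and 1, and red circles mark DEGs. *Col16a1* is circled above 1 and *Col6a4* below -1 at all 3 time points, and most other circles belong to Year 2.

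Among the fibrillar collagens, the transcripts of the main interstitial chains were higher with MWCNT, whereas those of type V hardly differed. Of the 7 fibrillar genes tested at Year 0.5 and Year 1, none was a DEG, and of the 8 tested at Year 2, *Col1a1* and *Col11a1* were higher and *Col27a1* was lower. By the FDR alone the class held 2 higher and 1 lower genes at Year 0.5, 1 and 1 at Year 1, and 3 and 1 at Year 2.

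*Col1a1* encodes the main chain of type I collagen (chr10:82745801-82762789, Rnor_6.0, plus strand). At Year 0.5 its normalized CPM was 468, 464, and 719.6 with vehicle and 798, 846, and 692 with MWCNT. At Year 1 it was 427, 435, and 362 with vehicle and 514, 442, and 527 with MWCNT, and at Year 2 309, 302, and 338 with vehicle and 829.7, 676, and 693 with MWCNT. The groups overlapped at Year 0.5 through control replicate 3, lay close together at Year 1, and were far apart at Year 2. The log2 fold changes were 0.49 ± 0.17 (SE, FDR = 0.0439), 0.28 ± 0.10 (SE, FDR = 0.0515), and 1.22 ± 0.10 (SE, FDR = 1.51e-05). The FDR at Year 0.5 was lost without control replicates 1 and 2 or MWCNT replicates 1 and 2 and with library size only, upper quartile normalization, DESeq2, or limma, with values from 0.37 to 0.73 over all alternatives. At Year 2 limma on log2(TPM + 1) gave 0.99 and on log2(TPM + 0.1) 0.996, both just under the limit for a DEG.

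For *Col3a1* (chr9:52023295-52059217), the normalized CPM at Year 0.5 was 913, 1035, and 1474 with vehicle and 1749.7, 1893, and 1555 with MWCNT. The corresponding values at Year 1 were 909.7, 846, and 803 and 1189.7, 1129, and 1223. At Year 2 they were 616, 648, and 755 and 1372, 1227, and 1054. The MWCNT-treated rats were above the control rats at every year, with log2 fold changes of 0.59 ± 0.16 (SE, FDR = 0.02), 0.47 ± 0.08 (SE, FDR = 0.00208), and 0.86 ± 0.12 (SE, FDR = 0.000304), so that *Col3a1* passed the FDR throughout but stayed under the fold limit. The call at Year 0.5 was lost without control replicates 1 and 2 or MWCNT replicates 1 and 2 and with limma, with values from 0.45 to 0.82 over all alternatives.

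Type V collagen sits inside type I fibrils and sets their diameter. Its genes *Col5a1*, *Col5a2*, and *Col5a3* did not pass the FDR at any year, with log2 fold changes from -0.30 to 0.22. *Col5a2* lies beside *Col3a1* on chromosome 9 (chr9:52092511-52238564, minus strand). Within a rat, the log2 ratio of *Col3a1* to *Col5a2* in TPM was 1.78 ± 0.21 with vehicle and 2.74 ± 0.25 with MWCNT at Year 2 (SD, n = 3). The ratio of *Col1a1* to *Col3a1* was -1.37 ± 0.08 and -1.02 ± 0.13 in the same groups, and -1.34 ± 0.10 and -1.44 ± 0.02 at Year 0.5. *Col1a1* was thus higher relative to *Col3a1* in every MWCNT-treated rat than in any control rat of Year 2, whereas the groups overlapped at Year 0.5. At Year 1 the reverse held, with *Col1a1* relatively lower in every MWCNT-treated rat than in any control rat. The ratio was then -1.36 ± 0.10 with vehicle and -1.55 ± 0.08 with MWCNT (SD, n = 3). These ratios were not tested.

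*Col11a1*, a minor fibril chain best known from cartilage, was scarce. At Year 2 its normalized CPM was 0.479, 0.192, and 0.629 with vehicle and 1.46, 0.929, and 1.6 with MWCNT, and no library held more than 24 counts. The groups did not overlap, and the log2 fold change was 1.61 ± 0.49 (SE, FDR = 0.0216). This call was lost without control replicates 1 and 2 or MWCNT replicates 1 and 3 and with limma, with values from 0.23 to 1.97 over all alternatives. *Col11a2*, the other type XI chain, did not pass at any year, with log2 fold changes of -0.06, -0.07, and 0.04.

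*Col27a1* (chr5:79055521-79170765), a fibrillar collagen of growing cartilage and epithelia, went the other way. Its normalized CPM was 9.60, 10.6, and 11.6 with vehicle and 5.22, 6.22, and 7.55 with MWCNT at Year 0.5. The Year 1 values were 11.4, 10.7, and 11 with vehicle and 6.52, 4.28, and 6.09 with MWCNT. At Year 2 it was 12, 13.9, and 14.4 with vehicle and 5.41, 6.07, and 5.74 with MWCNT. Every MWCNT-treated rat was below every control rat of its year. These values gave log2 fold changes of -0.75 ± 0.17 (SE, FDR = 0.00891), -0.97 ± 0.17 (SE, FDR = 0.00222), and -1.22 ± 0.14 (SE, FDR = 0.000111), of which only the last met the DEG criterion with TMM scaling. At Year 1 library size only, upper quartile normalization, limma on log2(TPM + 0.1), and leaving out MWCNT replicate 1 or 3 brought it past the fold limit, with values from -1.18 to -0.81 over all alternatives.

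Markers of the cell types that could carry these transcripts also differed. Of 11 lung fibroblast markers, 7 were lower and 3 higher by the FDR at Year 2, and their summed normalized CPM ranged from 1136 to 3028 in the control and 1275 to 1652 in the MWCNT-treated rats. Of 10 smooth muscle and pericyte markers, 9 were lower, with sums of 1391 to 1810.2 and 929.6 to 1055. None of these markers was at 0 in a group. Of the 10 cartilage markers in the tables, 3 could be tested at Year 2 and none passed, with summed values of 7.36 to 9.58 and 7.38 to 10.7. *Acan* and *Matn1*, which define cartilage, were at 0 in the control rats of Year 2, and *Acan* reached 0.146 and *Matn1* 0.334 normalized CPM at most in the MWCNT-treated rats. The part of these cell types in the changes of *Col1a1*, *Col3a1*, *Col11a1*, and *Col27a1* was not tested.

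**Figure D2:**
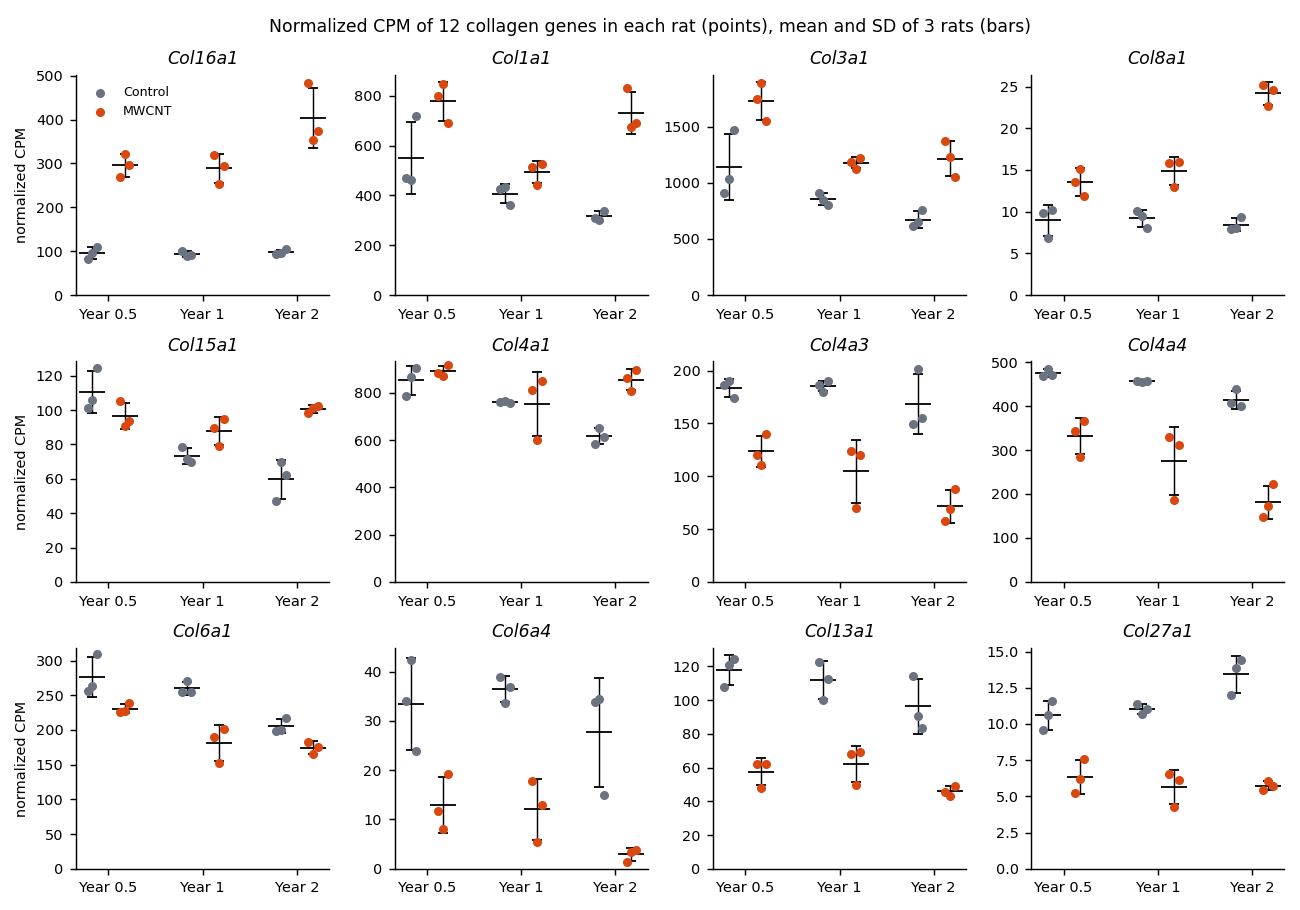
Normalized CPM (y axis, from 0) of 12 collagen genes in each rat by year, with control rats in gray and MWCNT-treated rats in orange. Horizontal lines are means and bars are SDs of 3 rats. *Col16a1* of all MWCNT-treated rats is at 254 or above and of all control rats at 109.9 or below, whereas *Col4a3*, *Col4a4*, *Col6a4*, *Col13a1*, and *Col27a1* are lower in the MWCNT-treated rats, and *Col4a1* separates the groups only at Year 2.

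Of the FACIT collagens, *Col16a1* showed the strongest rise among all collagen genes, and it was the only collagen gene that was a higher DEG at all 3 time points. Type XVI collagen is a fibril-associated collagen made by fibroblasts and smooth muscle cells, among others. The gene is on the plus strand at chr5:148257642-148311645 (Rnor_6.0). Its promoter is shown because no other collagen gene was a higher DEG at each year. The sequence runs from 250 bases before to 50 after the transcription start, from RefSeq in build GRCr8 (chr5:147672846-147673145, plus strand), with GC boxes (GGGCGG or CCGCCC) in capitals.
Col16a1: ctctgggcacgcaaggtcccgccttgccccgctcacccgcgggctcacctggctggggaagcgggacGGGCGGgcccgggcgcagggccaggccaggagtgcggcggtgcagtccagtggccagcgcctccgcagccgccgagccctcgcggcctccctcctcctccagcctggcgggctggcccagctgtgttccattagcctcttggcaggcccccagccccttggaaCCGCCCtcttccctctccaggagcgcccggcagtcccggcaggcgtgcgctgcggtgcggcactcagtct
*Col8a1*, the hexagonal network collagen described further on, rose at every year, and its promoter in the same build (chr11:56246532-56246831, plus strand) is given for comparison.
Col8a1: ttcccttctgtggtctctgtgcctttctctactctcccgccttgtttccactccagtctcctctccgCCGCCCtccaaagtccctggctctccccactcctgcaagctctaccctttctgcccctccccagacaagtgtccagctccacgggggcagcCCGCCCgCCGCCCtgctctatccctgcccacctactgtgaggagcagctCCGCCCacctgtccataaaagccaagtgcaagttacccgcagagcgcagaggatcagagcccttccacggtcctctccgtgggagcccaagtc
The window of *Col16a1* holds 2 GC boxes and that of *Col8a1* holds 4. A GC box on either strand was present in 33.1% of the 33469 RefSeq promoter windows of this length, and in 20 of the 36 windows that 33 of the 42 collagen genes had. Other motifs searched on both strands were CCAAT, present in 37.5% of all windows, the AP-1 site TGACTCA in 4.63%, and TATAAA in 14.2%. None of them was found in either window. GC content was 75% for *Col16a1* and 62.7% for *Col8a1*, beside a median of 51.7% over all windows.

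At Year 0.5 the normalized CPM of *Col16a1* was 82.7, 95.6, and 109.9 with vehicle and 269.6, 322, and 296 with MWCNT. The values of Year 1 were 100.2, 88.5, and 92.1 with vehicle and 319, 254, and 294 with MWCNT. The Year 2 values were 94.5, 96.3, and 104 with vehicle and 482, 354, and 373 with MWCNT. The control rats kept to a narrow band over the 2 years, and even the lowest MWCNT-treated rat exceeded the highest control rat more than 2-fold. Log2 fold changes were 1.61 ± 0.11 (SE, FDR = 1.95e-05), 1.63 ± 0.10 (SE, FDR = 6.91e-06), and 2.04 ± 0.12 (SE, FDR = 2.68e-06), which correspond to 3.06-fold, 3.09-fold, and 4.12-fold. *Col16a1* was at 38.5 ± 2.97 TPM with vehicle and 136 ± 20.4 TPM with MWCNT at Year 2 (SD, n = 3).

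No other FACIT gene tested rose as far as *Col16a1*, although *Col12a1* and *Col9a2* were also higher at Year 2. *Col12a1*, which bridges type I fibrils, passed the FDR at Year 0.5 and Year 2 with log2 fold changes of 0.19 ± 0.06 and 0.57 ± 0.12 (SE, FDR = 0.0388 and 0.00365). The first of these was lost without control replicates 1 and 2 or MWCNT replicates 1 and 2 and with library size only, upper quartile normalization, limma, a replicate block, or the model of all 18 rats, with values from 0.05 to 0.25 over all alternatives. The second was lost with limma, with values from 0.33 to 0.69 over all alternatives. *Col14a1*, a fibroblast FACIT, passed the FDR only at Year 1, where it was lower at -0.77 ± 0.16 (SE, FDR = 0.00528). In the control rats of Year 0.5 it was 27.1, 26.6, and 59.5 normalized CPM, so that replicate 3 was far above the others. The log2 ratio of *Col16a1* to *Col12a1* within a rat was 0.82 ± 0.13 in the control and 2.29 ± 0.31 in the MWCNT-treated rats of Year 2 in TPM, and that of *Col16a1* to *Col14a1* was 2.01 ± 0.33 and 4.21 ± 0.42 (SD, n = 3).

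*Col9a2*, a chain of type IX collagen that coats cartilage fibrils, was higher at Year 2. Its normalized CPM there was 6.50, 4.42, and 6.78 with vehicle and 11.7, 14.2, and 11.7 with MWCNT. In edgeR the log2 fold changes were 0.49 ± 0.44 (SE, FDR = 0.410), 0.70 ± 0.21 (SE, FDR = 0.0277), and 1.10 ± 0.19 (SE, FDR = 0.00132). The call at Year 1 was lost without control replicates 1 and 3 or MWCNT replicates 1 and 3 and with library size only, limma, or the model of all 18 rats, with values from 0.34 to 0.85 over all alternatives. The value at Year 2 fell under the fold limit with library size only (0.93), with limma on log2(TPM + 1) (0.76) or log2(TPM + 0.1) (0.88), and without control replicate 2 (0.92) or MWCNT replicate 2 (0.9998).

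*Col22a1*, known from tissue junctions such as the one between muscle and tendon, had at most 19 counts in a library. The values of Year 2 were 1.30, 0.960, and 0.909 with vehicle and 0.292, 0.495, and 0.601 with MWCNT in normalized CPM, and its log2 fold change was -1.16 ± 0.43 (SE, FDR = 0.0479). This call was lost when any single rat of Year 2 was left out. It was also lost with no filter on low counts, DESeq2, limma, a replicate block, or the model of all 18 rats, with values from -1.38 to -0.31 over all alternatives. *Col20a1* passed the FDR only at Year 2, where it was lower at -0.63 ± 0.18 (SE, FDR = 0.0166). This call was lost without control replicate 2 or MWCNT replicates 1 and 3, with values from -0.83 to -0.50 over all alternatives. *Col9a1*, *Col9a3*, and *Col19a1* were not tested, with at most 6, 18, and 13 counts in a library.

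The basement membrane collagens split by network. Transcripts of *Col4a3* and *Col4a4*, chains of the network of specialized basement membranes, were lower with MWCNT at every year and DEGs at Year 2, whereas those of *Col4a1* and *Col4a2*, chains of the common network, were higher at Year 2 and did not pass the FDR before. Of the 6 genes, 2 were lower by the FDR at Year 0.5, 4 were lower at Year 1, and 4 were lower and 2 higher at Year 2. *Col4a3* and *Col4a4* point away from each other on chromosome 9 (chr9:88357556-88485830, plus strand, and chr9:88232455-88357182, minus strand, Rnor_6.0). Each pair shares a start region in GRCr8, where the starts of *Col4a3* and *Col4a4* are 413 bases apart. Those of *Col4a1* and *Col4a2* on chromosome 16 are 77 bases apart in GRCr8. In Rnor_6.0, the build of the counts, these 2 genes do not start side by side (chr16:83522162-83632153, plus strand, and chr16:83387364-83438561, minus strand). The promoter windows of *Col4a3* (chr9:91323740-91324039, plus strand) and *Col4a4* (chr9:91323528-91323827, minus strand), from RefSeq in GRCr8, are shown because these neighbors moved together. Each is written in its own direction of transcription, with GC boxes in capitals, and 88 bases belong to both windows.
Col4a3: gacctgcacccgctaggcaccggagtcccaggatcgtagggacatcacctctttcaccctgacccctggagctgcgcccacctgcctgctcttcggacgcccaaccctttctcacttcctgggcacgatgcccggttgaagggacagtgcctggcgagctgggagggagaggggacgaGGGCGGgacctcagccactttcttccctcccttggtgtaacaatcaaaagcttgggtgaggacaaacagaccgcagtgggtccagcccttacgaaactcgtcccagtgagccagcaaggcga
Col4a4: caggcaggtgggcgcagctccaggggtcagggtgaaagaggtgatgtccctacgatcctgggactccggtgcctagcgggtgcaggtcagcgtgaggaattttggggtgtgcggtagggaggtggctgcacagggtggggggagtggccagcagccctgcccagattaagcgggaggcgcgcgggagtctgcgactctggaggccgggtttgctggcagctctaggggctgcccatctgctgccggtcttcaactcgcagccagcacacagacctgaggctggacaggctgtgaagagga
The window of *Col4a3* holds 1 GC box and that of *Col4a4* none, and neither holds any of the other motifs. GC content was 62% and 65.3%.

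The normalized CPM of *Col4a3* at Year 0.5 was 187, 190.3, and 174 with vehicle and 120.3, 111, and 139.7 with MWCNT. At Year 1 it was 186, 180.1, and 190.2 with vehicle and 124, 70.1, and 119.7 with MWCNT, and at Year 2 149.9, 201, and 155 with vehicle and 57.5, 69.3, and 88.3 with MWCNT. All MWCNT-treated rats were below all control rats of their year, and MWCNT Year 1 replicate 2, the library that stood apart, was the lowest of its group. The log2 fold changes were -0.58 ± 0.09 (SE, FDR = 0.00105), -0.83 ± 0.18 (SE, FDR = 0.00652), and -1.23 ± 0.16 (SE, FDR = 0.000227), and at Year 2 the omission of single rats gave values between -1.40 and -1.09.

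*Col4a4* was 469, 484, and 471 with vehicle and 344, 285, and 367 with MWCNT at Year 0.5 in normalized CPM. It was 456, 456, and 458 with vehicle and 329, 186, and 311 with MWCNT at Year 1. It was 408, 438, and 399 with vehicle and 148, 172, and 223 with MWCNT at Year 2. As with *Col4a3*, no MWCNT-treated rat reached a control rat, and the log2 fold changes of -0.53 ± 0.09 (SE, FDR = 0.00196), -0.73 ± 0.18 (SE, FDR = 0.0115), and -1.19 ± 0.13 (SE, FDR = 9.51e-05) were close to those of its neighbor. The ratio of *Col4a4* to *Col4a3* in TPM was accordingly steady, with group means from 0.62 to 0.74 on the log2 scale in all 6 groups.

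*Col4a1* behaved differently. Its normalized CPM was 787, 867, and 905 with vehicle and 886, 871, and 917 with MWCNT at Year 0.5. The Year 1 values were 761, 768, and 756 with vehicle and 813, 599, and 850.4 with MWCNT, where MWCNT replicate 2 was again lowest. At Year 2 it was 583, 653, and 615 with vehicle and 864, 808, and 897 with MWCNT. Only at Year 2 were the groups apart, and the control rats were then lower than at Year 0.5. These values gave log2 fold changes of 0.05 ± 0.07 (SE, FDR = 0.601), -0.01 ± 0.12 (SE, FDR = 0.938), and 0.48 ± 0.08 (SE, FDR = 0.000939). Those of *Col4a2* were -0.04, -0.06, and 0.45, with an FDR of 0.00361 at Year 2. This call was lost with limma, with values from 0.24 to 0.54 over all alternatives. The log2 ratio of *Col4a1* to *Col4a2* in TPM had group means from 0.77 to 0.92.

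The ratio between the networks, taken within each rat, therefore differed between the treatments. The log2 ratio of *Col4a3* to *Col4a1* in TPM was -1.98, -1.72, and -2.01 with vehicle and -3.93, -3.56, and -3.36 with MWCNT at Year 2. Group means were -2.23 ± 0.15 and -2.88 ± 0.13 at Year 0.5, -2.06 ± 0.05 and -2.90 ± 0.20 at Year 1, and -1.90 ± 0.16 and -3.62 ± 0.29 at Year 2 for control and MWCNT-treated rats (SD, n = 3). In linear terms, *Col4a3* amounted to 0.268 of *Col4a1* in the control and 0.0813 in the MWCNT-treated rats of Year 2. The log2 ratio of *Col4a4* to *Col4a2* was -0.40 ± 0.09 in the control and -2.07 ± 0.24 in the MWCNT-treated rats of Year 2. No rat of one treatment entered the range of the other for either ratio at any year. These ratios need no scaling between libraries and were not tested.

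The X-linked genes *Col4a5* and *Col4a6* were lower at Year 1 and Year 2. *Col4a5*, whose chain joins those of *Col4a3* and *Col4a4*, had log2 fold changes of -0.16 ± 0.08, -0.31 ± 0.09, and -0.41 ± 0.07 (SE), with FDR values of 0.127, 0.0237, and 0.00109. *Col4a6* had -0.20 ± 0.16, -0.51 ± 0.15, and -0.51 ± 0.13 (SE), with FDR values of 0.352, 0.0251, and 0.00967. At Year 1 the call of *Col4a5* was lost without control replicates 2 and 3, with values from -0.55 to -0.23 over all alternatives. That of *Col4a6* was lost without control replicates 2 and 3 or MWCNT replicates 1 and 2, with values from -0.75 to -0.38 over all alternatives.

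Alveolar type 1 and endothelial cells rest on these basement membranes, and their markers were lower as well. Of 7 alveolar type 1 markers, 6 were lower and *Cldn18* was higher by the FDR at Year 2, and their summed normalized CPM was 5538 to 6021, 5343 to 5837, and 5149 to 5638 in the control rats of Years 0.5, 1, and 2, and 4111 to 4562, 4143 to 4674, and 3155 to 3460.3 in the MWCNT-treated rats. Of 7 endothelial markers, 6 were lower at Year 2, with sums of 3647 to 4288 and 1406 to 1935. None of these markers was at 0 in a group. Their part in the lower levels of *Col4a3* and *Col4a4* was not tested.

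**Figure D3:**
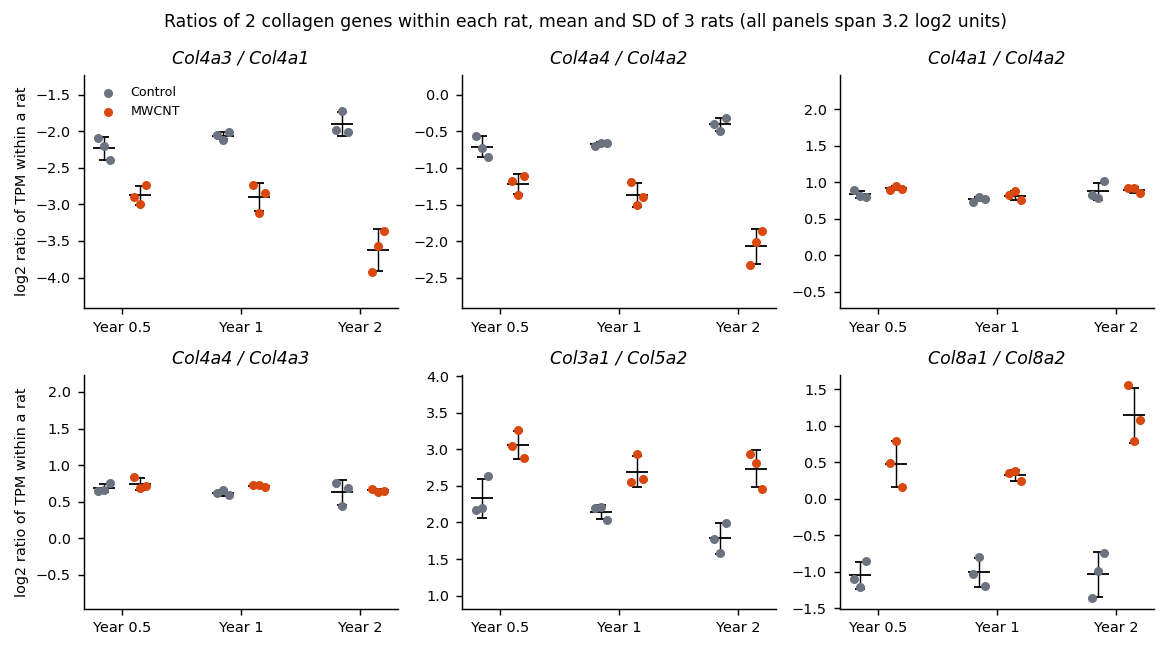
Log2 ratio of 2 collagen genes in TPM within each rat (y axis) by year, for control (gray) and MWCNT-treated (orange) rats, with means and SDs of 3 rats. *Col4a3* over *Col4a1* and *Col4a4* over *Col4a2* are lower in the MWCNT-treated rats at each year, with means of -3.62 and -2.07 at Year 2, whereas *Col4a1* over *Col4a2* and *Col4a4* over *Col4a3* have similar means in all groups. *Col3a1* over *Col5a2* and *Col8a1* over *Col8a2* are higher with MWCNT.

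The beaded filament collagens were mostly lower. Of the 5 genes tested, 3 were lower and 1 higher by the FDR at Year 0.5, 3 were lower at Year 1, and 4 were lower at Year 2. *Col6a4* was a lower DEG at all 3 time points and had the strongest fall of any collagen gene. Its chain is one of those that can join the chains of *Col6a1* and *Col6a2*. The normalized CPM of *Col6a4* was 34, 42.4, and 23.9 with vehicle and 11.6, 8.11, and 19.2 with MWCNT at Year 0.5. It was 38.9, 33.6, and 36.8 with vehicle and 17.8, 5.33, and 13 with MWCNT at Year 1. It was 33.8, 34.4, and 14.9 with vehicle and 1.46, 3.40, and 3.87 with MWCNT at Year 2, where control replicate 3 was well below the other control rats and still above all MWCNT-treated rats. Log2 fold changes were -1.39 ± 0.30 (SE, FDR = 0.00628), -1.6 ± 0.32 (SE, FDR = 0.00396), and -3.23 ± 0.39 (SE, FDR = 0.000147). At Year 2 this corresponds to 9.36-fold lower, with at least 20 counts in each of the 18 rats.

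The 3 genes *Col6a4*, *Col6a5*, and *Col6a6* lie in a row on the minus strand of chromosome 8, at chr8:114670631-114766803, chr8:114529016-114617466, and chr8:114353825-114449956 (Rnor_6.0), and they did not change alike. *Col6a5* passed the FDR only at Year 2, where it was lower at -0.38 ± 0.08 (SE, FDR = 0.00484). *Col6a6* passed only at Year 0.5, where it was higher at 0.58 ± 0.07 (SE, FDR = 0.000434), and had log2 fold changes of 0.09 and 0.19 afterwards. These paralogs are similar in sequence, and how the authors counted reads that fit several of them is not given in the sources used here.

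*Col6a1* and *Col6a2* encode the chains of the main type VI collagen and lie together on chromosome 20 (chr20:12658065-12675561 and chr20:12773427-12801180). The normalized CPM of *Col6a2* was 361, 382, and 403 with vehicle and 295, 291, and 322 with MWCNT at Year 0.5. The values of Year 1 were 342, 358, and 343 with vehicle and 238, 213, and 258 with MWCNT. The Year 2 values were 294, 302, and 306 with vehicle and 231, 216, and 220.1 with MWCNT. The decrease was small beside that of *Col6a4* but the groups were apart at each year. Log2 fold changes were -0.35 ± 0.07 (SE, FDR = 0.00466), -0.56 ± 0.08 (SE, FDR = 0.00104), and -0.43 ± 0.06 (SE, FDR = 0.000572). Those of *Col6a1* were -0.27, -0.52, and -0.23, all with an FDR below 0.05. The call of *Col6a1* at Year 0.5 was lost without control replicate 3 or MWCNT replicates 1 and 2, with values from -0.41 to -0.18 over all alternatives. That at Year 2 was lost without control replicate 3 or MWCNT replicates 2 and 3 and with the model of all 18 rats, with values from -0.45 to -0.19 over all alternatives.

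In the hexagonal network class, the chains of type VIII collagen moved in opposite directions. Type VIII collagen forms open lattices, for instance in vessel walls, from the chains of *Col8a1* and *Col8a2*. *Col8a1* is on the plus strand at chr11:44877859-45007891 (Rnor_6.0), and its promoter is printed above. Its normalized CPM was 9.83, 6.82, and 10.2 with vehicle and 13.5, 15.2, and 11.8 with MWCNT at Year 0.5. It was 10.1, 9.42, and 8.08 with vehicle and 15.8, 13, and 15.9 with MWCNT at Year 1. It was 7.87, 8.07, and 9.37 with vehicle and 25.2, 22.7, and 24.6 with MWCNT at Year 2. The control rats stayed at one level, and the MWCNT-treated rats of Year 2 were the highest of all. In edgeR the log2 fold changes were 0.58 ± 0.18 (SE, FDR = 0.0287), 0.70 ± 0.14 (SE, FDR = 0.00372), and 1.52 ± 0.12 (SE, FDR = 1.01e-05). The call at Year 0.5 was lost without control replicates 1 and 2 or MWCNT replicates 1 and 2 and with library size only or limma, with values from 0.37 to 0.68 over all alternatives. That at Year 1 was lost with limma, with values from 0.39 to 0.78 over all alternatives.

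*Col8a2* was 20.3, 15.2, and 17.8 with vehicle and 9.35, 8.50, and 10.3 with MWCNT at Year 0.5, 20, 15.8, and 17.9 with vehicle and 12, 9.61, and 13.1 with MWCNT at Year 1, and 19.6, 15.5, and 15.2 with vehicle and 8.33, 12.6, and 11.3 with MWCNT at Year 2 in normalized CPM. It was lower with MWCNT at each year, with log2 fold changes of -0.94 ± 0.14 (SE, FDR = 0.000968), -0.63 ± 0.14 (SE, FDR = 0.00778), and -0.63 ± 0.18 (SE, FDR = 0.0154), and the call at Year 2 was lost without control replicate 1, with values from -0.85 to -0.48 over all alternatives. In every control rat the TPM of *Col8a2* exceeded that of *Col8a1*, and in every MWCNT-treated rat the reverse held. The log2 ratio of *Col8a1* to *Col8a2* was -1.05 ± 0.18, -1.01 ± 0.20, and -1.03 ± 0.31 in the control rats of Years 0.5, 1, and 2, and 0.48 ± 0.32, 0.32 ± 0.08, and 1.14 ± 0.38 in the MWCNT-treated rats (SD, n = 3). *Col10a1*, the third gene of the class, marks hypertrophic cartilage and had at most 6 counts in a library.

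The multiplexins *Col15a1* and *Col18a1* carry long interrupted helices next to basement membranes. *Col15a1* (chr5:62840360-62950240) was 101, 106, and 124 with vehicle and 105, 90.5, and 93.9 with MWCNT at Year 0.5 in normalized CPM. At Year 1 it was 78.5, 71.3, and 69.7 with vehicle and 89.7, 79, and 94.7 with MWCNT. The values of Year 2 were 47.3, 69.6, and 62.2 with vehicle and 98, 101, and 103 with MWCNT. The MWCNT-treated rats lay within 79.0 to 105 normalized CPM over the years, while the control rats of Year 2 were far below those of Year 0.5. The log2 fold changes with MWCNT were -0.21 ± 0.09 (SE, FDR = 0.104), 0.26 ± 0.09 (SE, FDR = 0.0403), and 0.76 ± 0.12 (SE, FDR = 0.000732). The call at Year 1 was lost without control replicates 2 and 3 or MWCNT replicates 1 and 3 and with library size only, upper quartile normalization, limma, or the model of all 18 rats, with values from 0.02 to 0.33 over all alternatives. *Col18a1*, the source of endostatin, had log2 fold changes of -0.28, -0.29, and -0.23. It passed the FDR at Year 0.5 and Year 2 with values of 0.0498 and 0.0329. The first call was lost without control replicates 2 and 3 or MWCNT replicates 1, 2, and 3 and with no filter on low counts or DESeq2 size factors, with values from -0.42 to -0.18 over all alternatives. The second was lost without control replicates 1 and 2 or MWCNT replicates 1, 2, and 3 and with the model of all 18 rats, with values from -0.44 to -0.16 over all alternatives.

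Of the transmembrane collagens, *Col13a1* was lower throughout. It encodes a collagen of cell adhesion sites and lies at chr20:31456852-31598118 on the minus strand. Its normalized CPM was 108, 121, and 125 with vehicle and 62.2, 48.1, and 62.3 with MWCNT at Year 0.5. The Year 1 values were 123, 100.4, and 113 with vehicle and 67.9, 49.9, and 69.1 with MWCNT. At Year 2 it was 114, 90.6, and 83.8 with vehicle and 45.3, 43.5, and 49.3 with MWCNT. The groups were apart at each year, with log2 fold changes of -1.05 ± 0.11 (SE, FDR = 0.000134), -0.85 ± 0.13 (SE, FDR = 0.00113), and -1.06 ± 0.12 (SE, FDR = 9.47e-05). The calls at Year 0.5 and Year 2 rested close to the fold limit, and the value was -0.92 without MWCNT Year 0.5 replicate 2 and -0.91 without control Year 2 replicate 1. *Col17a1*, a hemidesmosome protein of epithelial cells, was higher at Year 0.5 at 0.69 ± 0.10 (SE, FDR = 0.000870) and did not pass the FDR at Year 1 (0.26) or Year 2 (0.25). *Col23a1* and *Col25a1* had at most 0 and 2 counts in a library.

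*Col7a1*, which forms the anchoring fibrils below epithelial basement membranes, was lower at Year 2 with a log2 fold change of -0.89 ± 0.12 (SE, FDR = 0.000344), after -0.37 and -0.71 at Year 0.5 and Year 1, which did not pass the FDR. With library size only, and with limma on log2(TPM + 0.1), it passed the fold limit at Year 2. Its level was 6.25 ± 0.750 TPM in the control and 2.89 ± 0.405 TPM in the MWCNT-treated rats of Year 2 (SD, n = 3). *Col26a1* and *Col28a1*, the remaining genes, had at most 36 and 17 counts in a library. For *Col26a1* the maximum came from MWCNT Year 2 replicate 3, with 2.40 normalized CPM, where the other rats of that group had 0.146 and 0.

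The composition of the collagen transcripts differed between the treatments. Their summed TPM differed as well, lower with MWCNT at Year 1 and slightly higher at Year 2. The difference at Year 1 depended on the unit. The summed TPM of the 42 genes was 2227 ± 308 in the control and 2203 ± 9.88 in the MWCNT-treated rats of Year 0.5, 1963 ± 36.8 and 1656 ± 274 at Year 1, and 1610.2 ± 92.8 and 1761 ± 62.8 at Year 2 (SD, n = 3). In single rats of Year 2 the sum was 1503, 1659, and 1668 TPM with vehicle and 1831, 1709, and 1744 TPM with MWCNT, so that the MWCNT-treated rats were all slightly above the control rats. At Year 1 the sum was 1955, 2003, and 1930 TPM with vehicle and 1789, 1341, and 1837 TPM with MWCNT. There the MWCNT-treated rats were all below the control rats, and MWCNT Year 1 replicate 2 was the lowest rat of all. Of all counts at Year 1, collagen genes held 0.526%, 0.524%, and 0.511% with vehicle and 0.502%, 0.391%, and 0.513% with MWCNT. In this unit the groups of Year 1 overlapped. At Year 2 it was 0.429%, 0.457%, and 0.456% with vehicle and 0.522%, 0.488%, and 0.499% with MWCNT, again without overlap. Fibrillar collagens took 36.9% ± 3.59, 33% ± 1.04, and 32.5% ± 1.74 of the summed TPM in the control rats of Years 0.5, 1, and 2, and 47.2% ± 2.98, 41.9% ± 2.51, and 44.1% ± 2.58 in the MWCNT-treated rats. In single rats of Year 2 the shares were 31.3%, 31.7%, and 34.5% with vehicle and 46.2%, 44.9%, and 41.2% with MWCNT, with no overlap.

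FACIT collagens gained as well, at Year 2 almost wholly through *Col16a1*. Their share was 5.02% ± 0.201 in the control and 10.3% ± 0.689 in the MWCNT-treated rats of Year 2, after 3.96% ± 0.213 and 6.84% ± 0.333 at Year 0.5, and *Col16a1* alone made up 136 of 182 TPM in the MWCNT-treated rats of Year 2. Beaded filament collagens lost share, with 22.2% ± 0.446 and 13.8% ± 0.264 at Year 2, after 20.8% ± 1.27 and 15.6% ± 1.08 at Year 0.5. Basement membrane collagens took 30% ± 1.67 and 25% ± 2.30 at Year 2, a difference that was -5.05 percentage points in TPM and -8.70 when counts were summed in place of TPM. Hexagonal network collagens stayed under 1% in all rats, with 0.765% ± 0.0836 and 0.829% ± 0.0701 at Year 2, while *Col8a1* and *Col8a2* differed in direction. Transmembrane collagens held 5.05% ± 0.905 and 2.14% ± 0.149 and multiplexins 4.08% ± 0.155 and 3.71% ± 0.194 (SD, n = 3). Shares are given without a test, and a share can fall because another class rose. The shares, and the sums they rest on, leave out *Col1a2*, *Col6a3*, and *Col21a1*.

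**Figure D4:**
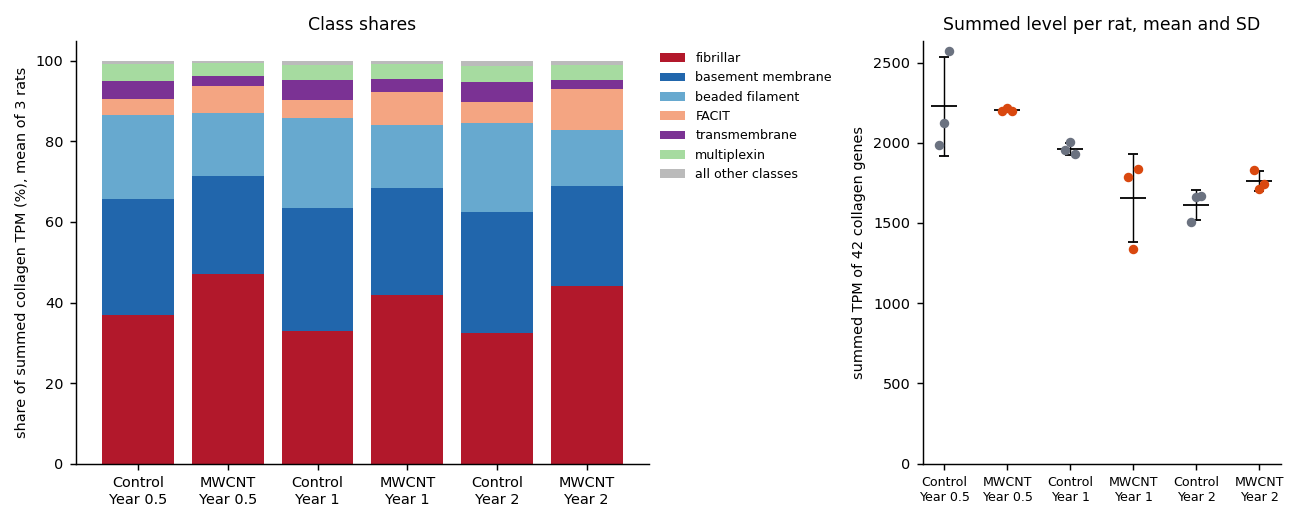
Left, mean share of each collagen class in the summed TPM of the 42 collagen genes (y axis, percent) for the 6 groups of 3 rats. Right, the summed TPM in each rat (points) with mean and SD of 3 rats, control rats in gray and MWCNT-treated rats in orange. The fibrillar share is 32.5% in the control and 44.1% in the MWCNT-treated rats of Year 2, while the sums of these groups have means of 1610.2 and 1761 TPM and do not overlap. The sums of Year 1 do not overlap either and are lower with MWCNT, with means of 1963 TPM in the control and 1656 TPM in the MWCNT-treated rats. As a percentage of all counts, which is not plotted, the groups of Year 1 overlap.

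Changes over time were tested in a joint model of all 18 rats, in which 35 collagen genes passed the filter. Between Year 1 and Year 0.5, edgeR called no collagen gene in either treatment, and 3 with vehicle and 10 with MWCNT had an unadjusted p below 0.05. Of all 14843 genes, 1041 with vehicle and 1371 with MWCNT did. By the FDR, DESeq2 gave 1 and 3 collagen genes (21 and 56 of all genes) and limma on log2(TPM + 1) none (0 and 12 of all genes). Among all genes in edgeR, the rates by the FDR alone were 0% with vehicle and 0.101% with MWCNT, and for DEGs 0% and 0.0472%. No treatment by time interaction passed between these years in edgeR (0% of all genes). An unadjusted p below 0.05 was found there for 4 collagen genes and for 1260 of all 14843 genes. No collagen gene passed in DESeq2 or limma either, where 6 of all genes passed in DESeq2 and 1 in limma on log2(TPM + 1).

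In the control rats, the collagen genes that changed between Year 0.5 and Year 2 were all lower at Year 2. No collagen gene was a DEG in edgeR (0.633% of all genes), but 8 of 35 were lower by the FDR (6.65% of all genes passed) and none was higher, where 4.00% of all genes were lower and 2.65% higher. At an unadjusted p below 0.05 there were 15 collagen genes in edgeR, 14 in DESeq2, and 12 in limma on log2(TPM + 1). Of all 14843 genes, 3565, 3474, and 3446 were below it. The 8 genes were *Col15a1* at -0.89 ± 0.11 (SE, FDR = 0.000669), *Col1a1* at -0.80 ± 0.15 (SE, FDR = 0.00498), *Col3a1* at -0.77 ± 0.14 (SE, FDR = 0.00612), and *Col4a1*, *Col4a2*, *Col4a5*, *Col6a1*, and *Col6a2* with log2 changes from -0.51 to -0.35. Control Year 0.5 replicate 3 was high for several of them, and its heart muscle, smooth muscle, and mesothelial marker sums were the highest of its group. Of 11 lung fibroblast markers, 3 were lower by the FDR in the same comparison and none higher, and their summed normalized CPM was 3134, 3552, and 3066 in the control rats of Year 0.5 and 1279, 1136, and 3028 in those of Year 2, where replicates 1 and 2 were far below replicate 3. No marker of the list was at 0 in a group, and their part in the change of the collagen genes was not tested. *Col1a1*, *Col3a1*, *Col6a2*, and *Col15a1* kept the FDR with any rat left out, when the changes of *Col1a1* and *Col3a1* were -0.56 and -0.54 or stronger. The call of *Col4a1* was lost without control Year 0.5 replicate 3 or control Year 2 replicate 1, with values from -0.53 to -0.43 over all alternatives. The call of *Col4a2* was lost without control Year 0.5 replicates 2 and 3 or control Year 2 replicates 1 and 3, with values from -0.60 to -0.45 over all alternatives. Those of *Col4a5* and *Col6a1* were each lost without control Year 0.5 replicate 3 or control Year 2 replicates 1 and 2, with values from -0.42 to -0.29 and from -0.49 to -0.34 with each rat left out, and that of *Col4a5* also with limma on log2(TPM + 0.1).

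In the MWCNT-treated rats, 2 collagen genes were DEGs between Year 2 and Year 0.5 (2.34% of all genes), *Col9a2* at 1.16 ± 0.33 (SE, FDR = 0.0281) and *Col6a4* at -2.11 ± 0.47 (SE, FDR = 0.00720). The call of *Col9a2* was lost without MWCNT Year 0.5 replicates 1 and 2 or MWCNT Year 2 replicates 1, 2, and 3 and with limma or a model of only the rats of both years, with values from 0.92 to 1.34 over all alternatives. By the FDR alone 3 were higher and 10 lower, where 13.5% of all genes passed, 6.65% higher and 6.87% lower. The higher genes were *Col9a2*, *Col8a1* at 0.85 ± 0.14 (SE, FDR = 0.000815), and *Col16a1* at 0.46 ± 0.12 (SE, FDR = 0.0169), a call that was lost without MWCNT Year 0.5 replicates 1 and 3 or MWCNT Year 2 replicate 1 and with limma, with values from 0.31 to 0.55 over all alternatives. The lower genes were *Col3a1*, *Col4a3*, *Col4a4*, *Col4a5*, *Col4a6*, *Col6a1*, *Col6a2*, *Col6a4*, *Col6a5*, and *Col17a1*, with *Col4a4* at -0.86 ± 0.17 (SE, FDR = 0.00276). Among these calls, that of *Col3a1* was lost without MWCNT Year 0.5 replicates 1 and 2 or MWCNT Year 2 replicates 2 and 3 and with a model of only the rats of both years, with values from -0.59 to -0.40 over all alternatives. The call of *Col4a6* was lost without MWCNT Year 0.5 replicates 1, 2, and 3 or MWCNT Year 2 replicates 1 and 3, with values from -0.63 to -0.45 over all alternatives. The call of *Col4a3* was lost without MWCNT Year 2 replicate 1 and that of *Col6a1* without MWCNT Year 2 replicate 2, with values from -0.94 to -0.63 and from -0.42 to -0.35 with each rat left out. Unlike in the control rats, *Col1a1*, *Col4a1*, *Col4a2*, and *Col15a1* did not pass here, with log2 changes of -0.07, -0.04, -0.02, and 0.08.

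Whether the effect of MWCNT differed between Year 2 and Year 0.5 was tested as an interaction, which 2 of the 35 collagen genes passed (1.31% of all genes). For *Col15a1* the interaction was 0.97 ± 0.16 (SE, FDR = 0.00770) on the log2 scale, and it held with each of the 12 rats left out (0.83 to 1.09). For *Col8a1* it was 0.95 ± 0.21 (SE, FDR = 0.0331), a call that was lost without control Year 0.5 replicates 1 and 3, control Year 2 replicates 1 and 2, MWCNT Year 0.5 replicates 1 and 3, or MWCNT Year 2 replicates 1 and 3 and with library size only, limma, or a model of only the rats of both years, with values from 0.75 to 1.11 over all alternatives and an FDR of up to 0.121 with 1 rat left out. Their courses differed: *Col15a1* fell in the control rats and not detectably in the MWCNT-treated rats, whereas *Col8a1* rose in the MWCNT-treated rats and had a change of -0.10 in the control rats. The interactions of *Col1a1* at 0.74 ± 0.20 (SE, FDR = 0.0867), *Col4a1* at 0.43 ± 0.14 (SE, FDR = 0.159), *Col4a4* at -0.66 ± 0.23 (SE, FDR = 0.205), and *Col6a4* at -1.83 ± 0.61 (SE, FDR = 0.166) did not pass in edgeR. DESeq2 passed that of *Col1a1* as well, and no other alternative did. For the other 3 genes no alternative passed, and a DEG call at Year 2 alone does not show that their effects differed between the years.

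**Figure D5:**
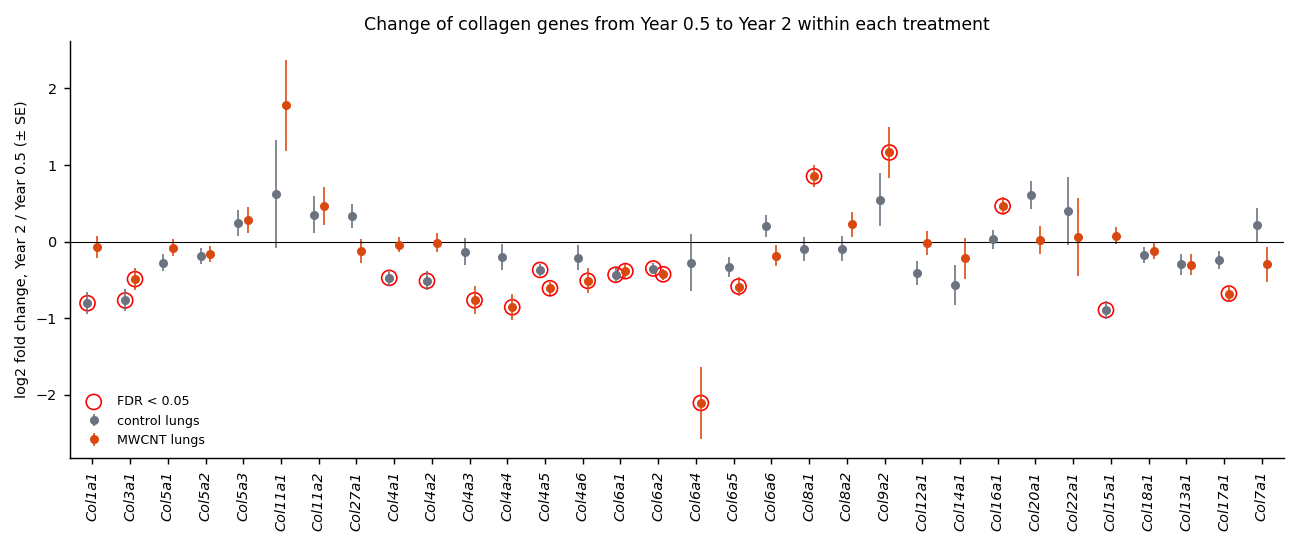
Log2 fold change of Year 2 over Year 0.5 (y axis, log scale) for 32 collagen genes (x axis, by class) in control (gray) and MWCNT-treated (orange) rats, from the joint edgeR model of 18 rats. Bars are standard errors and red circles mark an FDR below 0.05. In the control rats all 8 circled genes are below 0, and in the MWCNT-treated rats *Col8a1*, *Col9a2*, and *Col16a1* are circled above 0.

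Genes that process, bind, and degrade collagen were read from fixed lists, and up to 3 of the genes with the lowest FDR at Year 2 are named for each. By the FDR, 25.2% of all genes were higher and 24% lower at Year 2, after 20.2% and 18.6% at Year 0.5 and 21.6% and 19.6% at Year 1. Of 30 collagen processing genes tested at Year 2, 15 were higher and 5 lower by the FDR, after 11 and 7 of 30 at Year 0.5 and 10 and 3 of 30 at Year 1, and the median log2 fold change was 0.34 at Year 2, beside -0.01 for all genes. *P4hb*, a subunit of the enzyme that hydroxylates proline in collagen, was at 1.00 ± 0.09 (SE, FDR = 1.93e-05), *Adamts2*, which removes the N-propeptide, at 1.04 ± 0.08 (SE, FDR = 9.60e-06), and *Pcolce*, which enhances C-propeptide removal, at 0.76 ± 0.07 (SE, FDR = 3.48e-05). Of 10 fibril-associated proteoglycans and matrix genes tested, 3 were higher and 3 lower at each year, close to the shares over all genes, with *Thbs2* at 4.03 ± 0.21 (SE, FDR = 1.37e-06), *Fn1* at 1.49 ± 0.08 (SE, FDR = 2.10e-06), and *Prelp* at -0.59 ± 0.07 (SE, FDR = 0.000177). Of 7 collagen receptors tested, 1 was higher and 2 lower at Year 2, after 2 and 4 at the earlier years, with *Ddr1*, a receptor kinase for collagen, at 0.59 ± 0.09 (SE, FDR = 0.000781), *Mrc2*, which takes up collagen, at -0.44 ± 0.08 (SE, FDR = 0.00120), and the integrin chain *Itga1* at -0.54 ± 0.16 (SE, FDR = 0.0214).

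Of 6 collagen degradation genes tested at Year 2, 4 were higher and none was lower, after 3 of 5 higher at Year 0.5 and 4 of 5 at Year 1. *Ctsk*, a collagen-cleaving cathepsin, was at 4.71 ± 0.24 (SE, FDR = 1.18e-06), *Mmp14*, a membrane collagenase, at 2.04 ± 0.14 (SE, FDR = 5.02e-06), and *Mmp9*, a gelatinase, at 2.35 ± 0.25 (SE, FDR = 6.64e-05). All 8 macrophage markers were higher at each year, and their summed normalized CPM was 15022 to 17961 in the control and 44896 to 47529 in the MWCNT-treated rats of Year 2, with no marker at 0 in a group. Macrophages express proteases of this kind, and their part in these changes was not tested. Of 10 TGF-beta ligands and targets, 6 were higher and 2 lower at Year 2, as at Year 1, after 7 and 2 at Year 0.5, with *Tgfb1* at 1.02 ± 0.07 (SE, FDR = 4.53e-06) and *Ltbp2* at 1.12 ± 0.08 (SE, FDR = 6.38e-06). Of 11 laminins and other partners of type IV collagen tested, 6 were higher and 2 lower at Year 2, after 4 and 4 at Year 0.5 and 2 and 4 at Year 1, with *Lamb3* at 0.86 ± 0.07 (SE, FDR = 1.22e-05) and *Lamc1* at 0.59 ± 0.07 (SE, FDR = 0.000152).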

How the data were processed

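Total RNA of lung tissue from 18 rats was sequenced on an Illumina instrument, and per the paper's methods reads were mapped in CLC Genomics Workbench. The genome build named in the submitters' processing notes is Rnor_6.0. The authors deposited, for each rat, counts per gene (total gene reads) and TPM, the latter normalized for gene length and depth. How reads that fit several genes were assigned, and whether strand was used, is not given in the sources used here. Deposited RPKM and CPM columns and the authors' columns of group means, fold changes, and p-values were not used.

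Groups follow the labels of treatment and year. Counts were tested with edgeR 4.0.16 (R 4.3.3) by quasi-likelihood after filterByExpr (minimum count 10, minimum total count 15) and TMM scaling, per year with 6 rats, and in 1 model of 18 rats for time and interaction. DEGs had FDR < 0.05 and an absolute log2 fold change > 1, and interactions FDR < 0.05. SE is the log2 fold change divided by the square root of F. Normalized CPM uses TMM factors of the 18 libraries. Class shares and ratios are TPM without a test. Total counts per rat ranged from 13297643 to 21130757, and intervals and floors cover counting error only. Alternatives were other filters, other scalings, DESeq2 1.42.0, limma 3.58.1 on log2(TPM + 1) and log2(TPM + 0.1), a replicate block, other sets of rats in the fit, and each rat left out in turn.

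Collagen genes were matched by symbol. Full statistics are given for the DEGs of a year and the most abundant gene of each class, and in each pathway list the 3 genes with the lowest FDR at Year 2 are named, except for some that are not reported here. Other collagen genes with values in the text (such as partners in a ratio or genes past an interaction) were picked once their values were known. The members and lists were chosen with earlier results of these data known. Promoter windows are from RefSeq (GRCr8), and motifs were searched on both strands.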

Additional observations from a re-analysis of the deposited data

Results flagged for a closer look

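The effect of MWCNT on *Col15a1* differed between Year 2 and Year 0.5 by 0.97 on the log2 scale in the interaction test of edgeR (FDR = 0.00770). The log2 fold change was -0.21 at Year 0.5 and 0.76 at Year 2, and the difference held under every alternative run. For *Col8a1* the corresponding difference was 0.95 (FDR = 0.0331), with log2 fold changes of 0.58 and 1.52. This result was lost under library size only, limma, a model of only the rats of both years, and 8 of the 12 omissions of a single rat.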

How the results depend on the processing

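Of the log2 fold changes of the DEGs under other settings, 227 kept their direction and their side of the thresholds, 27 kept the direction only, and none reversed, and the cause was not tested. By the FDR alone, the number of collagen genes called was 16, 16, and 25 at Years 0.5, 1, and 2, and 8 in the control rats and 13 in the MWCNT-treated rats for Year 2 against Year 0.5, since no fold limit applies. With limma, 4 genes on log2(TPM + 1) and 7 on log2(TPM + 0.1) were called at Year 1, 7 on log2(TPM + 1) at Year 2, and 1 on either scale for the change in the MWCNT-treated rats from Year 0.5 to Year 2. The interaction of Year 2 with Year 0.5 gave 1 gene with library size only, with limma on either scale, and with only the rats of both years. With each rat left out, 2 to 6 genes were called at Year 0.5, 2 to 4 at Year 1, 8 to 11 at Year 2, 0 to 1 for the control rats and 1 to 2 for the MWCNT-treated rats between Year 0.5 and Year 2, and 1 to 2 for the interaction. The 6 genes at Year 0.5 arose without control replicate 2, which added *Col28a1*, *Col8a2*, and *Col9a3*, and the 4 at Year 1 without MWCNT replicate 1, which added *Col27a1* and *Col7a1*. *Col9a2* was called in the control rats without control Year 0.5 replicate 3, and *Col15a1* without control Year 2 replicate 2.

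Summing counts in place of TPM changed the difference in class share (MWCNT minus control) to -6.71, -6.30, and -8.70 percentage points at Years 0.5, 1, and 2 for basement membrane collagens, from -4.61, -4.11, and -5.05, and to -3.66, -4.85, and -6.37 for beaded filament collagens, from -5.19, -6.66, and -8.45, because counts grow with gene length. The rats were separate animals, so that the replicate numbers do not pair them. Deviations from the group means had a mean correlation of 0.007 between rats of the same number (9 pairs) and -0.003 between others (18 pairs). With a replicate block 3, 2, and 10 collagen genes were called at Years 0.5, 1, and 2, 3 for the MWCNT-treated rats between Year 0.5 and Year 2, and 2 for that interaction. With 3 rats per group and few counts, changes in the scarce collagens (*Col11a1*, *Col22a1*, and the genes not tested) were not resolved reliably.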

Other observations

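Markers of the remaining cell types of the tissue are given as summed normalized CPM at Year 2. All 7 alveolar type 2 markers were higher by the FDR in edgeR, with 17367 to 19721 in the control and 36931 to 40955 in the MWCNT-treated rats. Of 5 airway epithelial markers tested, 3 were lower and none was higher, with 5466 to 8564 in the control and 3427 to 3829 in the MWCNT-treated rats. Of 6 mesothelial markers, 1 was higher and 2 were lower, with 340.0 to 386 in the control and 319.8 to 409 in the MWCNT-treated rats. Of 6 lymphocyte markers, 1 was higher and 3 were lower, with 138 to 159.6 in the control and 207 to 253 in the MWCNT-treated rats. Of 5 Schwann cell markers tested, 1 was higher and 3 were lower, with 34.5 to 37.3 in the control and 30.9 to 38.2 in the MWCNT-treated rats. Of 9 heart muscle markers tested at Year 0.5, 8 were lower, with 185 to 683 in the control and 114 to 141 in the MWCNT-treated rats, and at Year 2 this held for 1 of 7.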
